A study of Mus musculus with 6 samples.

Results

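The genes described here encode the ATP-binding cassette (ABC) proteins of mouse outside the ABCC family. They were chosen by symbol, as every gene whose name begins with Abca, Abcb, Abcd, Abce, Abcf or Abcg followed by a number, which gave 40 of the 24411 genes listed. Of these, 16 belong to family A, 10 to family B, 4 to family D, 1 to family E, 3 to family F and 6 to family G. ABC proteins share a domain that binds and hydrolyses ATP. Families A, B, D and G use it to move lipids, sterols, peptides, bile salts, porphyrins or foreign compounds across membranes. The E and F proteins lack membrane-spanning parts and act on ribosomes. In the testis, members of this superfamily are known as drug efflux pumps of the blood-testis barrier, as sterol exporters of Sertoli cells, and as a rodent cluster of A family genes expressed mainly in male germ cells.

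RNA was sequenced from whole testes of age-matched C57BL/6 mice, a standard inbred laboratory strain. The 3 libraries labelled DKO came from animals of genotype MRP5-/- and MRP9-/-, and the 3 libraries labelled WT came from animals labelled Wildtype; no treatment is named. MRP5 and MRP9 are 2 ABCC transporters whose genes are Abcc5 and Abcc12. The sources used here give neither the age, the design of the alleles nor a batch of library preparation. The design text speaks of 3 mice per genotype, and each library was taken as a separate mouse on that ground. Whole tissue was used, so fewer cells of a type and less RNA per cell cannot be told apart.

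The libraries labelled DKO held 42673615 to 67131103 expected counts and those labelled WT 26753721 to 31745969. The mean fragment length was 317.4, 288.8 and 275.5 bases in libraries labelled DKO (replicates 1, 2 and 3) and 257.9, 230.4 and 245.7 bases in those labelled WT. Neither depth nor fragment length overlapped between the groups, so each cannot be told apart from genotype by the design. The targeted genes were read first as a check of the labels. Abcc12 had 27.4, 26.9 and 25.5 TPM (the deposited level per transcript length, scaled to the same total in each library) in libraries labelled DKO and 55.8, 58.4 and 55.7 TPM in those labelled WT. Abcc5 went against the label, with 4.51, 4.48 and 4.84 TPM against 3.28, 3.96 and 3.73 TPM, and groups are therefore called by their labels. The tissue carried its defining transcripts: the 9 spermatid markers summed to 99425 to 116686 TPM. The 6 epididymal genes summed to 6.39 to 7.28 TPM in libraries labelled DKO and 5.10 to 6.98 TPM in those labelled WT. Most of that was Rnase10, at 4.96 to 7.24 TPM per library, whereas Lcn5 and Lcn8 were listed at 0 in every library.

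Mean levels in libraries labelled WT ran from 0.040 TPM for Abcb5 to 205 TPM for Abcf2, and the ribosome-acting F family stood at the top. Of the TPM summed over these genes in libraries labelled WT, 58.1% fell to the 3 F genes, 16.2% to the 16 A genes, 13.6% to the 10 B genes, 5.32% to Abce1, 4.22% to the D genes and 2.59% to the G genes. Abcf2 had 204, 208 and 204 TPM in libraries labelled WT, Abcf1 had 132, 141 and 132 TPM, and Abcf3 had 65.8, 70.3 and 66.6 TPM. These 3 did not overlap one another in the WT libraries, and each lay above all other members. Abce1 (37.3 ± 2.79 TPM, SD, n = 3) and Abcb6 (34.6 ± 1.798 TPM) came next and overlapped, followed by Abcb9 at 31.8 ± 0.785 TPM. The testis-type genes Abca14, Abca16 and Abca17 stood at 24.96 ± 1.31, 24.7 ± 0.596 and 23.0 ± 1.119 TPM (SD, n = 3 each), a run in which each neighbour overlapped the next.

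In libraries labelled WT, 14 members had a mean of at least 10 TPM, 10 had 1 to under 10 TPM and 16 had under 1 TPM. The low class held transporters whose textbook sites lie in other organs: Abcb11, the bile salt export pump of liver (0.933 ± 0.0862 TPM, SD, n = 3), Abca4, a retinoid transporter of photoreceptors (0.210 ± 0.0721 TPM), Abca12, a lipid carrier of skin (0.223 ± 0.0306 TPM), and Abcg5, a sterol transporter of gut and liver (0.207 ± 0.0321 TPM). Summed over all 40 genes, libraries labelled DKO held 696, 691 and 710 TPM and those labelled WT held 691, 724 and 690 TPM. The sums overlapped, so the total output of these genes did not separate the groups.

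**Figure D1:**
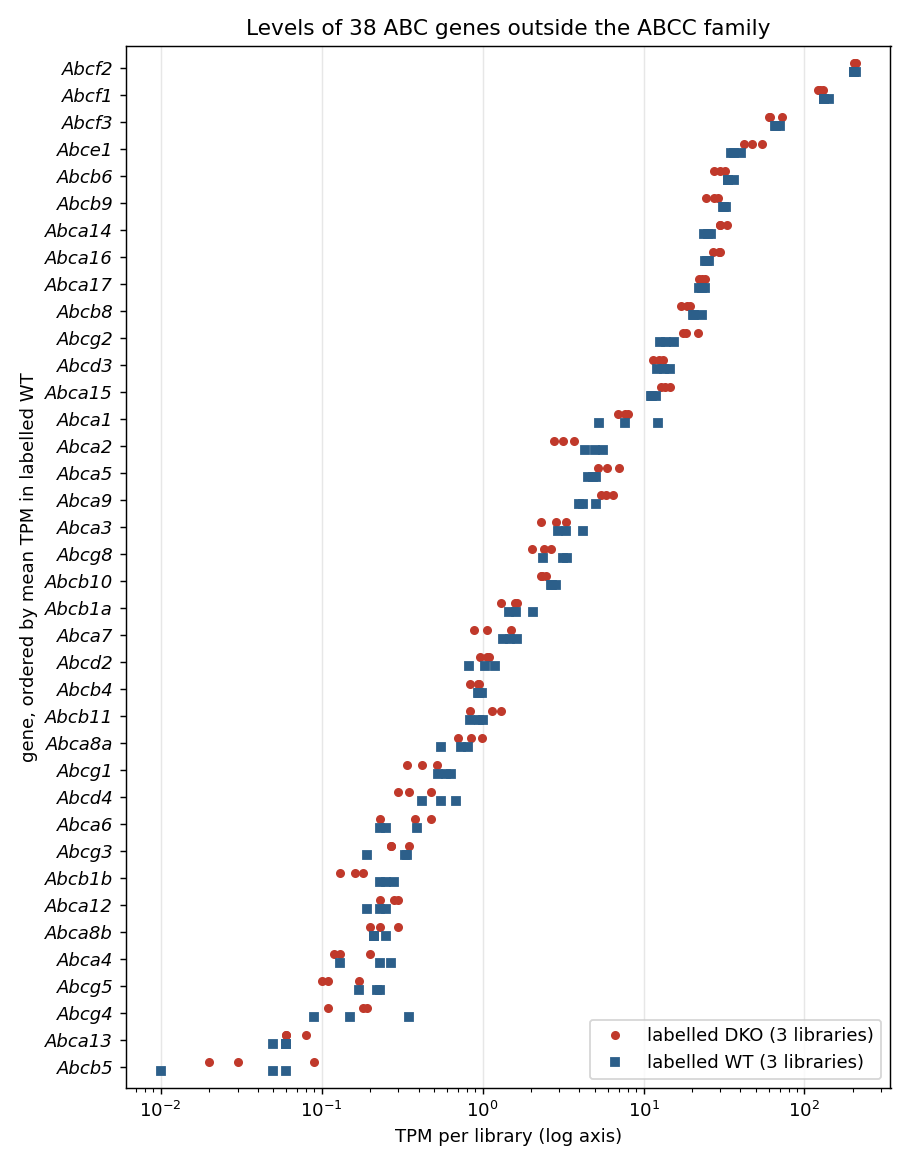
Level of 38 of the 40 genes in each library, in TPM on a log axis, with genes ordered by their mean in libraries labelled WT; circles are the 3 libraries labelled DKO and squares the 3 labelled WT. Abcf2 lies near 205 TPM in both groups, and Abcb5 is the lowest.

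Expression in libraries labelled DKO was compared with that in libraries labelled WT for the 38 members that passed the filter on low counts; Abcb5 and Abcg5, with at most 10 counts in any library, did not pass it. The edgeR quasi-likelihood test, with a threshold of 0.05 on the adjusted p, called 7 of the 38 (18.4%), against 10.8% of all 17110 genes tested. Of the 7, 6 were higher in libraries labelled DKO (15.8% of members, against 5.75% of all genes) and 1 was lower (2.63%, against 5.1%). The higher members were Abca14, Abca15, Abca16, Abca9, Abce1 and Abcg2, and the lower member was Abca2. The 7 folds ran from 0.681 for Abca2 to 1.43 for Abcg2. The median log2 fold change was -0.0053 over the 38 members and -0.0042 over all genes, and 18 of the 38 were above 0. CPM, counts scaled to TMM-adjusted library size and not to length, did not overlap between the groups in 13 of the 38 members (34.2%), against 35.9% of all genes.

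**Figure D2:**
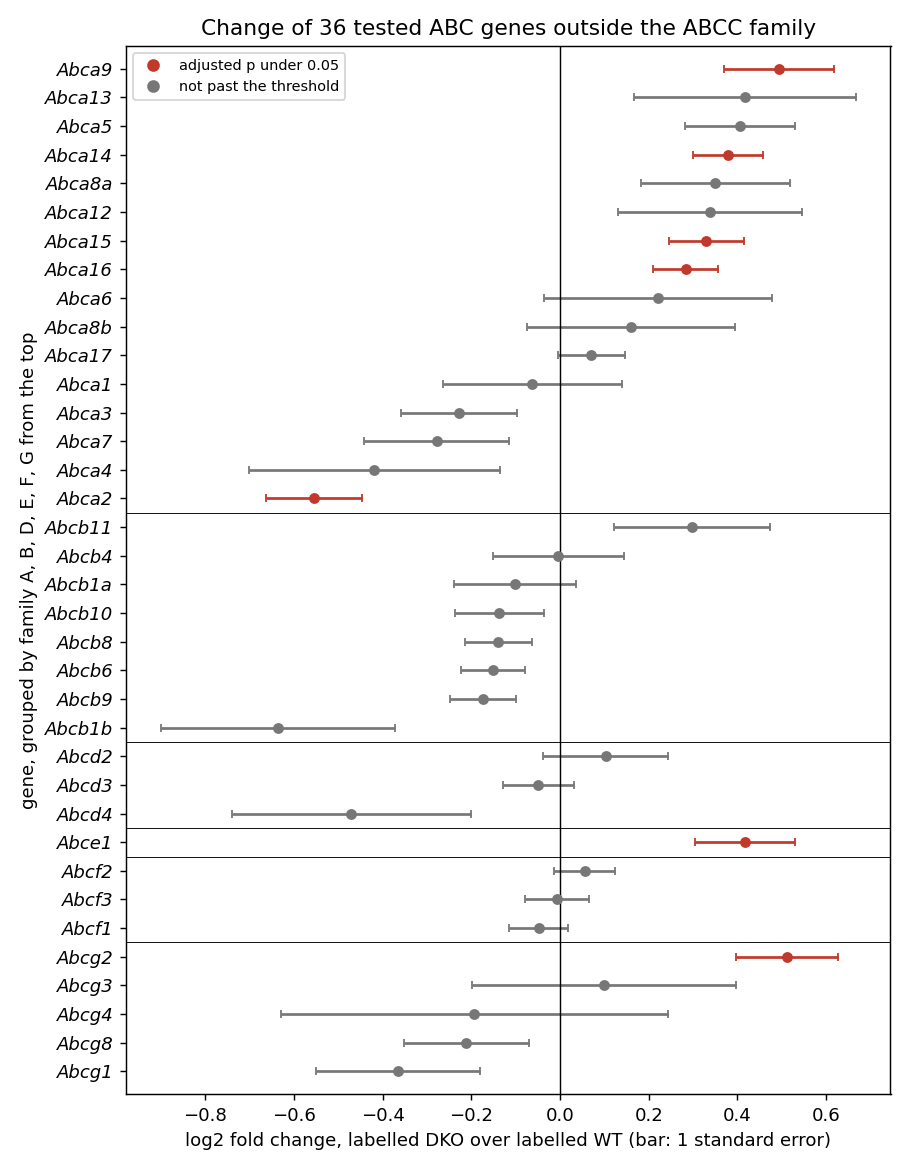
Log2 fold change of 36 of the 38 tested genes, labelled DKO over labelled WT, with 1 standard error from the edgeR fit, grouped by family from A at the top to G at the bottom. Called genes are red: 6 lie to the right of 0 and Abca2 lies to the left at -0.56.

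The A family held 5 of the 7 calls and 16 of the 38 tested members. Of the 16, 4 were called higher (25%) and 1 lower (6.25%), beside 5.75% and 5.1% of all genes. Of the 5 called, 3 form a single gene cluster. A family proteins are large transporters that mostly move phospholipids and sterols. Abca14, Abca15 and Abca16 lie side by side on mouse chromosome 7 (GRCm38.p6, 120203927 to 120544892, a span of 340966 bases) and are known as a rodent group expressed in testis. Abca14 had 33.1, 29.8 and 29.7 TPM in libraries labelled DKO and 23.6, 25.04 and 26.2 TPM in those labelled WT. Every library labelled DKO was above every library labelled WT. The log2 fold change was 0.38 (SE 0.079, 1.30-fold; edgeR quasi-likelihood adjusted p = 0.027).

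Abca15, its neighbour, had 14.6, 13.7 and 12.9 TPM against 11.2, 11.4 and 11.9 TPM, again without overlap, and its log2 fold change was 0.33 (SE 0.0849; edgeR adjusted p = 0.0374). Abca16 had 29.9, 26.9 and 29.3 TPM against 25.4, 24.7 and 24.2 TPM, with the groups apart and a difference of 0.28 on the log2 scale (SE 0.0739; edgeR adjusted p = 0.0385). The cluster thus rose by 1.22- to 1.30-fold. None of the 3 had a fractional expected count in any library (within 0.005 of a whole number), and of 5354 and 5305 stretches of 31 bases in the transcripts of Abca14 and Abca15 only 8 were in common. Within 500 kb on either side, 14 other genes were tested, of which 2 were called higher and 0 lower (beside 5.75% and 5.1% of all genes), with a median log2 fold change of 0.24. Abca17, a testis-type relative on chromosome 17, did not pass the threshold, with 22.1, 24.0 and 23.0 TPM in libraries labelled DKO and 21.97, 22.9 and 24.2 TPM in those labelled WT (log2 fold change 0.07, SE 0.0757; edgeR adjusted p = 0.557).

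Because the 3 cluster genes moved together, upstream sequence is shown, 5′ to 3′, from the RefSeq promoter table of GRCm38.p6. The table gives 250 bases before a start, and that start can lie inside the outermost bounds of the gene: 37 bases of the window of Abca14, 198 of that of Abca15 and 0 of that of Abca16 fall within the gene's own span. Only the bases outside gene spans and annotated exons are printed, 213, 52 and 250 of them, whereas motifs were searched in the whole windows. Capitals mark matches on either strand to the CCAAT box (CCAAT) or the core recognised by MYB proteins (CNGTTG).

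Abca14 (chr7:120203714-120203926, + strand): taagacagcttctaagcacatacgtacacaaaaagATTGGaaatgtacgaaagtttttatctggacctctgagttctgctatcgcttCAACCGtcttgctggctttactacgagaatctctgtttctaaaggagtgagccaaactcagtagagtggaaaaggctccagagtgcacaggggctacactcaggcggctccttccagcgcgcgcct

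Abca15 (chr7:120328434-120328485, + strand): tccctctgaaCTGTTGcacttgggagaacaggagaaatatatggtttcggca

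Abca16 (chr7:120409397-120409646, + strand): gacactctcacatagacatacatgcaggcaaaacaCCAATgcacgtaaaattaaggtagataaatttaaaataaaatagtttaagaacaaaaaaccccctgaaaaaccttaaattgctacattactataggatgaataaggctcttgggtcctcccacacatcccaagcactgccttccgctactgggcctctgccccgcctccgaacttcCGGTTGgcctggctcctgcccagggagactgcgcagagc

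The MYB core was present in the windows of all 3, with 1 match for Abca14, 2 for Abca15 (1 of them in the printed bases) and 1 for Abca16, and also in that of the uncalled Abca17. It was found in 14 of the 37 promoters listed for 32 members and in 29.3% of all 32851 promoters of that length. The CCAAT box was found in the windows of Abca14 and Abca16, in 11 of the 37 member promoters and in 33.8% of all promoters. Neither the TATA box (TATAAA, 12.4% of all promoters) nor the cAMP response element (TGACGTCA, 1.55%) occurred in these 3 windows. The counts of CG dinucleotides were 15, 13 and 6 for Abca14, Abca15 and Abca16, against a median of 6 over all promoters. The letters describe these windows and were not tested for activity.

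Of 8 markers of spermatocytes, the meiotic germ cells, 2 were called higher (Sycp3 and Hormad1, parts of the meiotic chromosome axis) and 0 lower, beside 5.75% and 5.1% of all genes; the other 6 did not pass the threshold. The summed level of the 8 was 708 to 926 TPM in libraries labelled DKO and 611 to 660 TPM in those labelled WT, with none at 0. The highest sum, 926 TPM, was in DKO replicate 1, which also had the highest level of Abca14, Abca15 and Abca16 and the longest fragments. Abca16 did not follow the sum in DKO replicates 2 and 3, at 26.9 and 29.3 TPM beside sums of 763 and 708 TPM. Spermatid markers summed to 106911 to 116686 TPM against 99425 to 108826 TPM, with 0 of 9 called, and spermatogonial markers to 81.6 to 97.3 against 82.1 to 97.6 TPM, with 0 of 7 called. The part of cell makeup in the rise of the cluster was not tested.

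**Figure D3:**
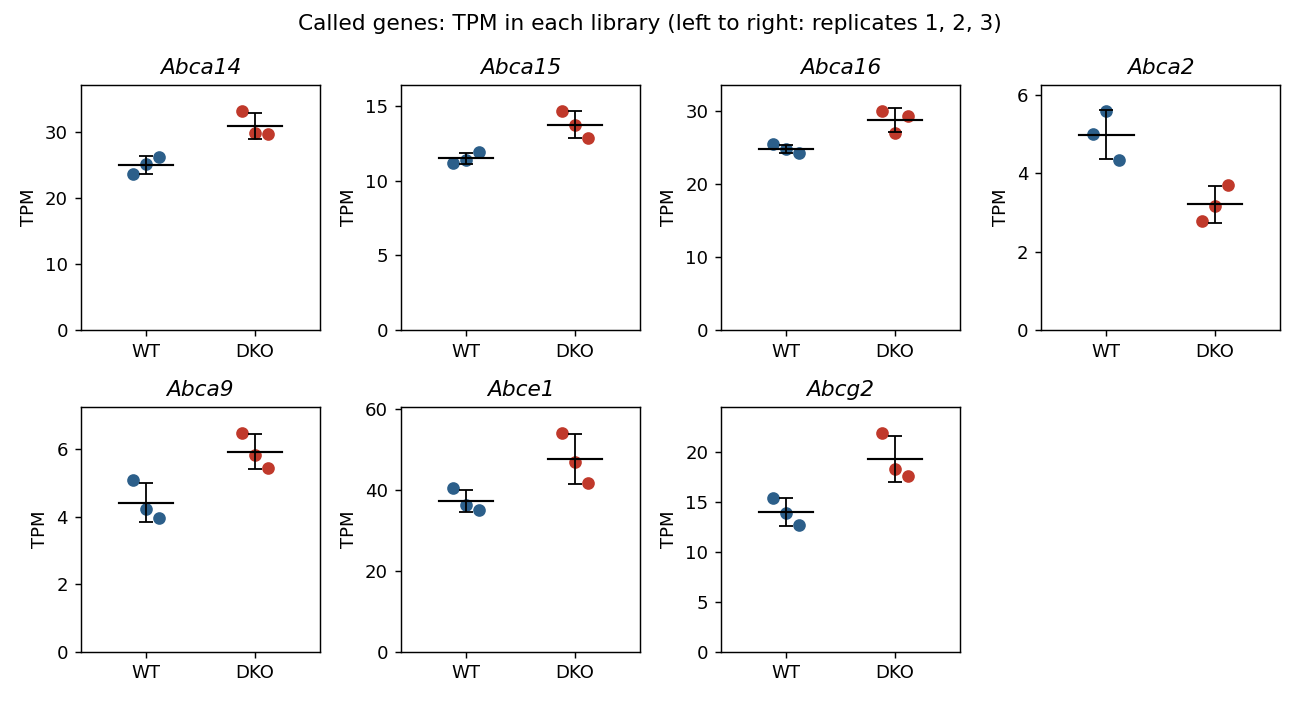
TPM of the 7 called genes in each library, with axes that start at 0; points are libraries, long bars are group means and error bars are 1 SD (n = 3). The groups do not overlap for any of the 7 on this scale, and Abca2 is the one that is lower in libraries labelled DKO. The 7 were picked by a test on these same libraries. Of all 40 members, 15 were apart in TPM, a share that was not computed over all genes. In CPM, 13 of the 38 tested members were apart (34.2%), against 35.9% of all genes.

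Abca9 rose as well. It belongs to a group of 5 A family genes on chromosome 11 (109932206 to 110337723 in GRCm38.p6, with Abca8b, Abca8a, Abca6 and Abca5), lipid transporters of less well known function. Abca9 had 6.48, 5.83 and 5.45 TPM in libraries labelled DKO and 5.08, 4.22 and 3.95 TPM in those labelled WT. The groups were apart, and the log2 fold change was 0.49 (SE 0.124, 1.41-fold; edgeR adjusted p = 0.0363). Abca5, a lysosomal member of the same group, lay just outside the threshold, with 7.02, 5.96 and 5.20 TPM against 5.05, 4.55 and 4.86 TPM (log2 fold change 0.41, SE 0.123; edgeR adjusted p = 0.0541, and 0.0138 with DESeq2). Abca8a, Abca6 and Abca8b did not pass it, at log2 fold changes of 0.35, 0.22 and 0.16 and WT means under 1 TPM. The 9 other genes tested within 500 kb of the group had 0 calls and a median of 0.03. The upstream sequence of Abca9 is shown beside that of Abca2, the member that fell. Of the window of Abca9, 121 bases lie within the gene's own span and the other 129 are printed; the window of Abca2 is printed whole. Neither window holds a match to any of the motifs searched (those above and the half-site TGACG), so neither has capitals.

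Abca9 (chr11:110168275-110168403, - strand): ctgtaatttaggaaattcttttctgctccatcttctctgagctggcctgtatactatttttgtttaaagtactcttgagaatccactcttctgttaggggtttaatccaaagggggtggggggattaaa

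Abca2 (chr2:25428349-25428598, + strand): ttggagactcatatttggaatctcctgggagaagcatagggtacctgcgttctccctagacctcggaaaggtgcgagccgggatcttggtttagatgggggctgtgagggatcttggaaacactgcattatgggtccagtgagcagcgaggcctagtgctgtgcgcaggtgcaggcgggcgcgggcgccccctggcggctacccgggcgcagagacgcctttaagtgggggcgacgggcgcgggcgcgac

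Abca2, an endolysosomal lipid transporter best known from myelin-forming cells, was the only member called lower. It had 2.77, 3.15 and 3.70 TPM in libraries labelled DKO and 5.01, 5.58 and 4.33 TPM in those labelled WT, with no overlap. Its log2 fold change was -0.56 (SE 0.109, 0.681 of the WT level; edgeR adjusted p = 0.0255). The 2 upstream windows differ in base content, with 2 CG dinucleotides for Abca9 and 20 for Abca2. Sertoli cell markers summed to 1392 to 1739 TPM against 1828 to 2337 TPM, with 4 of 12 called, all lower (beside 5.1% of all genes), and none at 0. Markers of peritubular myoid cells summed to 64.3 to 75.2 TPM against 75.4 to 111 TPM, with 1 of 5 called, lower (the same 5.1% of all genes). Their part in the lower level of Abca2 was not tested.

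Abca1, the exporter of cholesterol and phospholipid to apolipoprotein A-I, had 8.04, 7.68 and 6.90 TPM in libraries labelled DKO and 5.28, 12.3 and 7.69 TPM in those labelled WT. WT replicate 2 was the highest of all 6 and WT replicate 1 the lowest, so the groups overlapped (log2 fold change -0.06, SE 0.202; edgeR adjusted p = 0.858). WT replicate 2 also had the highest summed level of markers of Leydig cells, which make testosterone. The same library was highest for Sertoli (2337 TPM), peritubular myoid (111 TPM) and endothelial markers (20.6 TPM). The Leydig sum was 1244, 1536 and 883 TPM in libraries labelled DKO and 1516, 3170 and 1987 TPM in those labelled WT. In WT replicate 2 most of it was Insl3, at 2576 TPM. Of the 9 Leydig markers, 3 were called lower (beside 5.1% of all genes) and none was at 0. Whether any of these cell types carried the Abca1 signal was not tested. Macrophage markers, from another cell type that exports sterol, summed to 843 to 864 against 751 to 790 TPM with 0 of 10 called. Most of that sum was Aif1, at 808 ± 7.49 against 715 ± 31.5 TPM (SD, n = 3 each), so the sum says little about the other markers. Of the 10, 5 had a positive log2 fold change, Aif1 among them, and the median was -0.07. Cd68, Csf1r, Adgre1, Cd163, C1qa and C1qb were highest in WT replicate 2, as Abca1 was. Mrc1, Cx3cr1, Ptprc and Aif1 were not. The part of macrophages in the level of Abca1 was not tested.

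The remaining A genes did not pass the threshold. Abca7, a phospholipid transporter linked to phagocytosis, had 0.89, 1.06 and 1.51 TPM against 1.48, 1.64 and 1.33 TPM (log2 fold change -0.28, SE 0.163; edgeR adjusted p = 0.264). Abca3, the surfactant lipid transporter of lung, had a log2 fold change of -0.23 (SE 0.131), and Abca12, Abca13 and Abca4, all under 1 TPM, had 0.34, 0.42 and -0.42 with SE of 0.207, 0.250 and 0.283. Of the 16 A genes, 11 had a positive log2 fold change, and the family median was 0.25.

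Abce1, which splits the ribosome into its subunits after termination, rose. It had 54.2, 46.9 and 41.9 TPM in libraries labelled DKO and 40.4, 36.4 and 35.1 TPM in those labelled WT. The groups were apart in TPM, with DKO replicate 1 the highest. They overlapped narrowly in CPM, at 99.5 in DKO replicate 3 and 99.8 in WT replicate 1. The log2 fold change was 0.42 (SE 0.113, 1.34-fold; edgeR adjusted p = 0.041). The promoter window of Abce1 lies within the span of a neighbouring gene on the opposite strand, Anapc10, with 149 of its 250 bases in annotated exons, and is not printed. It holds a full cAMP response element (TGACGTCA), the palindrome bound by CREB and by CREM, a known regulator of spermatid genes, and a CCAAT box on the opposite strand.

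The element begins 10 bases before the start that the table gives. Of the 37 member promoters, 2 held the full element, 1 each of Abce1 and Abcg2, beside 1.55% of all promoters; its half-site TGACG, which the full element contains, was present in 9 of the 37 and in 17.8% of all. A match is a description of the sequence, and binding was not measured.

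The 3 F genes did not pass the threshold, on 3650 to 21421 counts per library. Abcf2 had 202, 208 and 205 TPM in libraries labelled DKO against 204, 208 and 204 TPM, overlapping, at 0.06 on the log2 scale (SE 0.0692; edgeR adjusted p = 0.616). Abcf1, which binds the initiation factor eIF2, had 121, 125 and 130 TPM against 132, 141 and 132 TPM. Its TPM values did not overlap, whereas its CPM values did, and its log2 fold change was -0.05 (SE 0.0657; edgeR adjusted p = 0.648). Abcf3 had 61.2, 60.0 and 72.3 TPM against 65.8, 70.3 and 66.6 TPM, overlapping (log2 fold change -0.0064, SE 0.0717; edgeR adjusted p = 0.962).

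Abcg2, the breast cancer resistance protein that pumps drugs, urate and porphyrins out of cells and stands at the blood-testis barrier, had the highest log2 fold change of the 7 called members. It had 21.9, 18.3 and 17.6 TPM in libraries labelled DKO and 15.4, 13.9 and 12.7 TPM in those labelled WT, with no overlap. Its log2 fold change was 0.51 (SE 0.115, 1.43-fold; edgeR adjusted p = 0.0301). The promoter table gives 3 starts for Abcg2 on chromosome 6, and the files do not say which was used; the full cAMP response element lies 37 bases before the start of 1 of them. Endothelial markers, from the other cell type in which this pump is well known, summed to 14.3 to 19.5 TPM against 17.3 to 20.6 TPM with 0 of 8 called. Red blood cell transcripts, from a lineage that also carries the pump, summed to 1.74 to 27.7 TPM against 2.81 to 5.61 TPM, with the highest value in DKO replicate 2, in which Abcg2 was not the highest; Hba-a2 and Hbb-bs were listed at 0 in every library. The part of these cells in the rise of Abcg2 was not tested.

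The sterol transporters of the G family did not pass the threshold. Abcg1, which exports cholesterol to high-density lipoprotein, had 0.34, 0.42 and 0.52 TPM in libraries labelled DKO against 0.59, 0.64 and 0.53 TPM, with the groups just apart and a difference of -0.37 on the log2 scale (SE 0.185; edgeR adjusted p = 0.199). Abcg8, the partner of Abcg5, had 2.02, 2.68 and 2.42 TPM against 2.36, 3.33 and 3.15 TPM, overlapping (log2 fold change -0.21, SE 0.141; edgeR adjusted p = 0.323). Abcg3 and Abcg4 had at most 34 counts in any library. Abcg5 and Abcg8 share 82 bases of exon on opposite strands in GENCODE M21, and strand handling is not given in the sources used here. Neither gene had a fractional expected count in any library, so no split of reads between them was seen. How reads in the shared bases were assigned is not known.

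In the B family, 0 of 9 tested members were called by edgeR, beside 10.8% of all genes, and 2 had an unadjusted p under 0.05. DESeq2 called none, beside 20.8% of all genes. In CPM the groups were apart in 5 of the 9 (55.6%), beside 35.9% of all genes. Of the 9, 7 had a negative log2 fold change, with a family median of -0.14 against -0.0042 over all genes. Abcb6, a porphyrin transporter, had 27.6, 29.9 and 32.3 TPM in libraries labelled DKO and 33.7, 36.7 and 33.5 TPM in those labelled WT. The groups were apart, yet the log2 fold change of -0.15 (SE 0.072) did not pass the threshold (edgeR adjusted p = 0.175). Another GENCODE M21 gene, Gm29253, covers 55.2% of the exon bases of Abcb6 on the same strand.

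Abcb9, a lysosomal peptide transporter, had 24.5, 27.4 and 29.0 TPM against 30.97, 32.5 and 31.8 TPM, also without overlap (log2 fold change -0.17, SE 0.0742; edgeR adjusted p = 0.134). Abcb8, a transporter of the inner mitochondrial membrane, had 17.2, 18.8 and 19.5 TPM against 20.5, 23.0 and 20.3 TPM, with the groups apart (log2 fold change -0.14, SE 0.0749; edgeR adjusted p = 0.224). Its mitochondrial relative Abcb10, needed for heme synthesis in red cell precursors, had 2.33, 2.32 and 2.48 TPM against 2.69, 2.68 and 2.84 TPM, apart, at -0.14 on the log2 scale (SE 0.10; edgeR adjusted p = 0.369).

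Mouse has a pair of P-glycoprotein genes, the drug pumps of the blood-testis barrier. Abcb1a had 1.59, 1.30 and 1.63 TPM in libraries labelled DKO and 1.61, 2.05 and 1.45 TPM in those labelled WT, which overlapped (log2 fold change -0.10, SE 0.137; edgeR adjusted p = 0.646). Abcb1b had 0.13, 0.18 and 0.16 TPM against 0.23, 0.28 and 0.25 TPM, apart, with the most negative log2 fold change of all members, -0.64, but on at most 28.7 counts a library (SE 0.264; edgeR adjusted p = 0.124). These 2 genes share 1064 stretches of 31 bases, 21.4% of those of Abcb1a, and both had fractional counts in all 6 libraries, so the split between them is uncertain. Abcb4, the phosphatidylcholine transporter of bile, had 0.84, 0.95 and 0.93 TPM against 0.93, 0.99 and 0.95 TPM (log2 fold change -0.0041).

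The D family are transporters that carry fatty acids into peroxisomes and, in the case of Abcd4, cobalamin out of lysosomes. It also had 0 of 4 called, beside 10.8% of all genes. None had an unadjusted p under 0.05, and DESeq2 called none, beside 20.8% of all genes. Abcd3 had 13.2, 11.5 and 12.5 TPM against 12.2, 14.7 and 13.3 TPM, at -0.05 (SE 0.0807). Abcd2 was at 1.04 ± 0.0666 against 1.02 ± 0.190 TPM, and Abcd4 at 0.377 ± 0.0929 against 0.550 ± 0.130 TPM (SD, n = 3 each), both overlapping.

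The deposited gene length is an average over transcripts weighted by their estimated abundance, so it moves when the estimated mix of isoforms moves. Only 5 members list more than 1 transcript, and 35 list 1. Of the 5, Abca3 had fractional expected counts in all 6 libraries, so the assignment of its reads, and the length built on it, is uncertain. It shares 222 stretches of 31 bases with Abca17, which had fractional counts in 0 libraries. For Abca3 the mean length was 6450 ± 5.46 bases in libraries labelled DKO and 6466 ± 4.39 bases in those labelled WT, without overlap (SD, n = 3 each; two-sided exact permutation p = 0.1, below which 3 against 3 cannot go). For Abcg8 it was 3173 ± 68.7 against 3095 ± 44.3 bases (exact permutation p = 0.2). For Abca16 it was 4712 ± 7.63 against 4708 ± 14.2 bases (exact permutation p = 0.7), with overlap, and for Abcf2 the p was 0.6. Abca6 was at 5239 bases in all libraries labelled WT and at 4276, 5239 and 4851 bases in those labelled DKO, on 57, 37 and 78 counts (exact permutation p = 0.4).

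Genes that work with these proteins were read from the same fit, in 5 lists chosen by role. The list for ribosome recycling and initiation, set beside Abce1 and the F family, had 33 tested genes. Of these, 5 were called higher and 1 lower (18.2%, against 10.8% of all genes), with a median log2 fold change of 0.15. The higher genes included Eif1a, Ltn1 and Eif2s1, at log2 fold changes of 0.36, 0.36 and 0.33, which encode a scanning factor, the ubiquitin ligase of stalled ribosomes and a subunit of eIF2. Pelo, the rescue factor that works with Abce1 on stalled ribosomes, was the lower one, at -0.41 (SE 0.096; edgeR adjusted p = 0.0332). It had 14.1, 16.3 and 15.0 TPM in libraries labelled DKO against 19.0, 22.5 and 20.1 TPM, without overlap. The other 27 did not pass the threshold.

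Of 31 tested peroxisomal genes, partners of the D family, 2 were called higher and 2 lower (12.9%), with a median of -0.03. Pex5l and Pex13, at 0.57 and 0.36, were higher, and Pex16 and Acot8, at -0.34 and -0.49, were lower; the other 27 did not pass the threshold. Of 36 tested genes for mitochondrial heme and iron-sulfur assembly, partners of the mitochondrial B genes, only Slc25a37, the iron importer mitoferrin-1, was called (2.78%), at 0.36 (SE 0.0805; edgeR adjusted p = 0.0301), and the median was -0.09. Slc25a37 had 18.0, 16.7 and 17.1 TPM against 14.7, 13.8 and 13.7 TPM. Of 29 tested sterol-handling genes, 0 were called higher and 2 lower (6.9%), with a median of -0.15. These were Nr1h2 and Rxrb, which encode the nuclear receptor LXR beta that induces Abca1 and Abcg1 and one of its dimer partners, at -0.36 (SE 0.0894; edgeR adjusted p = 0.0358) and -0.27 (SE 0.0733; edgeR adjusted p = 0.0438). Neither Abca1 nor Abcg1 was called.

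Of 14 peptide-loading genes, Pdia3 was called higher at 0.40 and H2-K1 lower at -0.37 (14.3%), with a median of -0.10. Tap1 and Tap2, ABC proteins of the B family that carry other symbols and so are not among the 40, had 0.68, 0.72 and 1.03 TPM against 1.06, 0.94 and 0.91 TPM, and 1.28, 1.51 and 1.79 TPM against 1.2, 2.22 and 1.73 TPM (log2 fold changes -0.19 and -0.11, neither past the threshold). In the ABCC family, which holds the targeted genes, 2 of 10 were called (20%, against 10.8% of all genes). They were Abcc5 and Abcc12 themselves, and the median of the family was -0.07. No ABCC gene outside the targeted pair was called by edgeR. Outside the family 7 of 38 were called (18.4%, against the same 10.8% of all genes). The untargeted ABCC genes are few, and a difference between these shares was not tested.

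**Figure D4:**
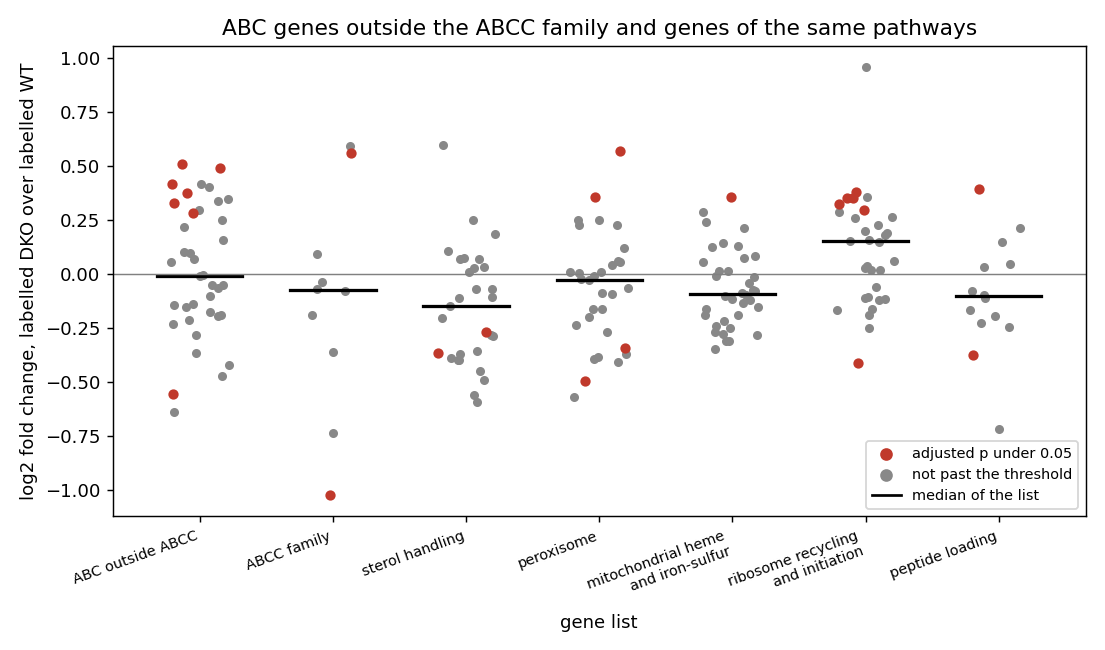
Log2 fold change, labelled DKO over labelled WT, of each tested gene in the ABC families outside ABCC, in ABCC and in the 5 partner lists; red points are called, black bars are medians and points are spread sideways for legibility. The median is highest for ribosome recycling and initiation, at 0.15, and lowest for sterol handling, at -0.15.

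The number of members called changed with the handling of fragment length and with single libraries. Within libraries labelled DKO, the levels of Abca14, Abca15, Abca9, Abce1 and Abcg2 fell in the order of fragment length from the longest to the shortest, and that of Abca2 rose. Within libraries labelled WT none of the 7 followed that order. The uncalled Abcb6, Abcb8, Abcb9 and Abcf1 also rose in it within libraries labelled DKO. The share of all genes that follow it was not computed. In the same order of DKO replicates 1, 2 and 3, depth rose (42673615, 45666837 and 67131103 expected counts). The summed spermatocyte markers fell (926, 763 and 708 TPM), so the order is not particular to fragment length. With the fragment length as a covariate, no member was called (0 of 38; 1 at an unadjusted p under 0.05), in an edgeR fit that called 1 gene in all, a lower one (0.00584%). Abce1 then stood at -0.07, Abca9 at 0.05, Abca15 and Abcg2 at 0.07, Abca16 at 0.10, Abca14 at 0.16 and Abca2 at -0.26 (edgeR adjusted p = 0.999 for each). An offset built from each gene's effective length in each library left all 7 past the threshold, against 9.71% of all genes. The 7 are 2491 (Abcg2) to 8061 bases (Abca2) long, so effective length differs little between libraries. Abca14 moved only from 0.378 to 0.352 and Abcg2 from 0.513 to 0.505. The offset therefore cannot show whether the calls depend on fragment length.

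The same 7 members were called with DESeq2 size factors (11.1% of all genes), a mean count of at least 50 (14%) and limma-voom (9.85%). Without a count filter (11%) and with DESeq2 (20.8%), Abca5 joined them. With the length trend removed (10%) Abca16 was lost, and after thinning to the smallest total (10.9%) Abca9 was lost. On log2(TPM + 1), limma called Abca2 alone, so 0 members were higher against 1.63% of all genes and 1 was lower against 2.67%, 4.3% in both directions; 12 members had an unadjusted p under 0.05. On log2(TPM + 0.1) it called Abcg2 higher (2.16% of all genes) and Abca2 lower (3.37%; 5.53% in both directions).

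No member was called without DKO replicate 1, without WT replicate 2 or without WT replicate 3, fits in which 0.0643%, 0.0747% and 0.0402% of all genes were called, every one of them lower; 8, 11 and 8 members had an unadjusted p under 0.05. Without DKO replicate 2, 0 members were higher (0.993% of all genes) and 1, Abca2, was lower (2.83%; 3.83% in both directions). Without DKO replicate 3, 7 were higher (11.1%) and 2 lower (6.59%; 17.7% in both directions), with Abca5 and Abca7 added. Without WT replicate 1, 5 were higher (5.65%) and 1 lower (6.02%; 11.7% in both directions), and Abca15 was lost.

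**Figure D5:**
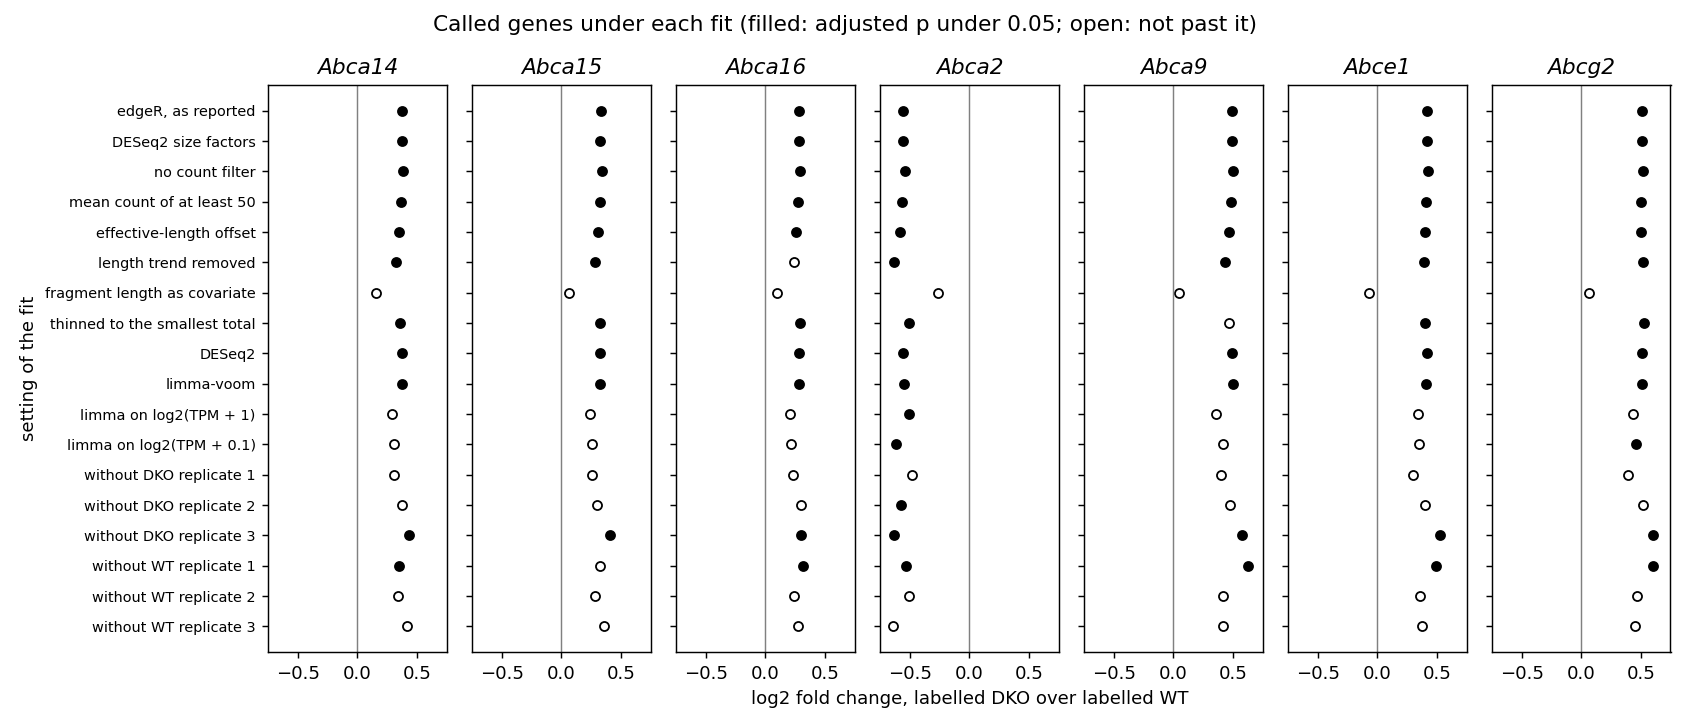
Log2 fold change of the 7 called genes (columns) in each fit (rows); filled points passed an adjusted p of 0.05 and open points did not. Only Abce1 crosses 0, at -0.07 with the fragment length as a covariate.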

How the data were processed

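RNA sequencing of whole testis gave 1 deposited file per library, 3 labelled DKO and 3 labelled WT, grouped by the genotype label; replicates were numbered in deposition order and are not paired. Per the submitters' processing notes, STAR 2.7.0f, RSEM 1.2.31, DESeq2 1.12.3 and build mm10 were used; filters and strand setting are not given in the sources used here. Per the file headers, the authors deposited expected counts (estimated fragments per gene), TPM, FPKM, and a length and effective length in bases for 24411 genes. The deposited FPKM were left aside.

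Expected counts were rounded, filtered with filterByExpr, scaled by TMM and tested with edgeR 4.0.16 (quasi-likelihood, genotype only), with Benjamini-Hochberg adjustment over 17110 genes and a threshold of 0.05. The SE is the absolute log2 fold change over the square root of F. CPM are TMM-scaled. Mean fragment length was read off as 1 more than the difference of length and effective length, by its median among genes above 3000 bases. Gene positions and promoters are from RefSeq GRCm38.p6 (40 of 40 genes and 32 of 40 genes matched), and exons from GENCODE M21.

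Alternatives were DESeq2 size factors, no filter, a mean count of at least 50, an effective-length offset, removal of each library's trend on transcript length (mgcv 1.9.3), fragment length as covariate, thinning to the smallest total, DESeq2 1.42.0, limma-voom, limma 3.58.1 on log2(TPM + 1) and log2(TPM + 0.1), and leaving out each library. Named members are those called, the 12 with the highest mean TPM and the highest of each family; per partner list, up to 4 called genes with the smallest p, and Tap1 and Tap2. Other members given by library were chosen for their known roles after their values were seen. Members, lists and alternatives were chosen with earlier results of these data known, and the promoter motifs after the calls were seen. The edgeR script was tested on simulated data. The values of 2 members are not reported here; they remain in the counts.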

Additional observations from a re-analysis of the deposited data

How the results depend on the processing

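Among the fits that kept all libraries, the number of genes called over the whole table was 1856 in the fit reported and differed by over 1.5 times with DESeq2 (2943), limma on log2(TPM + 1) (735; 279 higher and 456 lower, against 984 and 872), limma on log2(TPM + 0.1) (947; 370 higher and 577 lower) and the fragment length as a covariate (1). The count of ABC members outside ABCC called higher was 0 on log2(TPM + 1), 1 on log2(TPM + 0.1) and 0 with the covariate, and that called lower was 0 with the covariate; the other settings gave 6 to 8 calls in both directions. Leaving out a library gave 7 to 3029 genes in all, 0 to 7 members higher and 0 to 2 lower, and a member median from -0.0476 to 0.0246; the cause was not tested.

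Called partners numbered 0 in every list with the covariate, except the ABCC family at 1. DESeq2 gave 6 sterol, 8 peroxisomal, 3 mitochondrial and 12 ribosome genes. Limma on log2(TPM + 1) gave 0, 2, 0 and 1 of these and 1 ABCC gene, and on log2(TPM + 0.1) it gave 1, 2, 0, 1 and 1. Without a count filter there were 5 sterol and 10 ribosome genes, with the length trend removed 4 sterol and 2 mitochondrial, with the effective-length offset 2 mitochondrial, and after thinning 1 sterol. Leaving out a library gave 0 to 8 sterol, 0 to 6 peroxisomal, 0 to 3 mitochondrial, 0 to 11 ribosome, 0 to 3 peptide-loading and 1 to 2 ABCC calls.

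Log2 fold changes near 0 changed sign for Abca17 on log2(TPM + 1), at -0.0013, and log2(TPM + 0.1), at -0.0014, for Abcf2 with the covariate, at -0.0071, and for Abcf3 without a filter, at 0.0022, with the covariate, at 0.10, and from -0.0644 to 0.0105 when a library was left out (0.0104 and 0.0105 without DKO replicates 1 and 2). Abce1 changed sign with the covariate, at -0.0723. The 16 members under 1 TPM had at most 274 counts in a library, which limits their precision. No paired analysis was possible because the labels give no shared replicate numbers.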
